A study of Homo sapiens with 6 samples.

Results

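The transcripts of 10 innate immune sensing genes were followed in 786-O cells, an established line of clear cell renal carcinoma, after knockdown of the transcription factor NFE2L3. They were listed by name for their role, with earlier results of these data known. The sensors were TLR3, TLR4, DDX58 (the RIG-I gene), IFIH1 (the MDA5 gene), DHX58 (the LGP2 gene) and MB21D1 (the cGAS gene), and the adaptors and the kinase behind them were MAVS, TMEM173 (the STING gene), MYD88 and TBK1. These are 10 of the 56303 genes in the count table, and all 10 were among the 19916 genes with enough reads to be tested. RNA-seq covered 3 libraries of cells that had received siRNA against NFE2L3 (siNFE2L3) and 3 of cells that had received control siRNA (siControl). The siNFE2L3 libraries are labelled 48 h and the siControl libraries 0 h, so effects of siRNA and of labelled time cannot be told apart. The study lists more than 1 siRNA against NFE2L3, and the sources used here do not say which of them these libraries had. A general statement in the study gives its data as coming from independent trials, but no source says of these libraries that they came from separate cultures, so p-values may measure only technical spread. In 2 of the siNFE2L3 samples the genotype label carries another number in the gene name, while their titles and source names say NFE2L3.

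Toll-like receptors sit in membranes and read microbial molecules outside the cell or in endosomes. TLR4 responds to bacterial lipopolysaccharide and TLR3 to double-stranded RNA. RIG-I and MDA5 detect viral RNA in the cytosol and pass the signal to MAVS on mitochondria, while cGAS detects cytosolic DNA and makes a cyclic dinucleotide that binds STING at the endoplasmic reticulum. MAVS, STING and the TLR3 adaptor TRIF all engage the kinase TBK1, which phosphorylates IRF3 and so switches on type I interferon genes, whereas MYD88 carries most other TLR signals towards NF-kB. Leukocytes are the best known users of these receptors, and kidney epithelial cells carry several of them too.

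The library totals ran between 51828446 and 56806368 counted reads in siNFE2L3 and between 53051297 and 57391929 in siControl. The knocked-down gene itself, NFE2L3 (chr7:26152240-26187125, GRCh38), had counts of 1087, 1075 and 1068 in the siNFE2L3 libraries, against 6171, 6508 and 6403 in the siControl libraries. Its level was 17.2% of control (log2 fold change -2.54, SE 0.0482, adjusted p = 3.98e-22). Here and below, adjusted p is the Benjamini-Hochberg value over all 19916 tested genes from the quasi-likelihood test of edgeR, and a gene is said to have risen or fallen where it is under 0.05. Levels are RPKM, exon reads per kilobase of exon, scaled to library size by TMM, given as mean ± SD with n = 3 per group. The 7 renal line markers, among them PAX8 and VIM, were all expressed. Of these 7 markers 4 fell and 1 rose, while 14% of all tested genes fell and 12.7% rose. The summed levels of the 7 markers were 2413.6 to 2505 CPM in siNFE2L3 and 2705 to 2762 CPM in siControl. Of the 8 leukocyte markers, whose summed level was 116 to 122 CPM in siNFE2L3 and 124 to 146 CPM in siControl, only CD68 exceeded 0.5 RPKM in any library. The pan-leukocyte marker PTPRC averaged 0.0201 RPKM in siNFE2L3 and 0.0204 RPKM in siControl, CSF1R rose (0.382 RPKM in siNFE2L3 and 0.254 RPKM in siControl) and CD68 fell (53.7 RPKM in siNFE2L3 and 60.3 RPKM in siControl). Whether these markers have a part in the results was not tested. In bulk libraries, fewer cells with a transcript and less of it per cell cannot be told apart.

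Knockdown was accompanied by lower transcript levels of both Toll-like receptors and of both RNA sensors that signal through MAVS. TLR3, TLR4, DDX58 and IFIH1 fell to between 60.1% and 76.4% of control, and no gene of the 10 rose. Behind the sensors, the adaptors MAVS, TMEM173 and MYD88, the kinase TBK1, the DNA sensor MB21D1 and the regulator DHX58 did not pass the test. The 4 falls among 10 genes compare with 14% of all tested genes that fell and 12.7% that rose (26.7% in either direction). The count of 0 rises was 0 also at an unadjusted p under 0.05 and with DESeq2, limma-voom and the exact test of edgeR, all of which gave 4 falls, and edgeR gave 5 genes lower at an unadjusted p under 0.05. The siNFE2L3 libraries all lay below the siControl libraries for 6 of the 10 genes, against 20.4% of all tested genes, and all above for 0 of the 10, against 19.1%. The median log2 fold change of the 10 genes was -0.22, and that of all tested genes -0.00066. None of the 10 changed 2-fold. By the rule of an unadjusted p under 0.05 and a 2-fold change, the genes called lower were 0.377% and those called higher 0.723% of all tested.

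**Figure D1:**
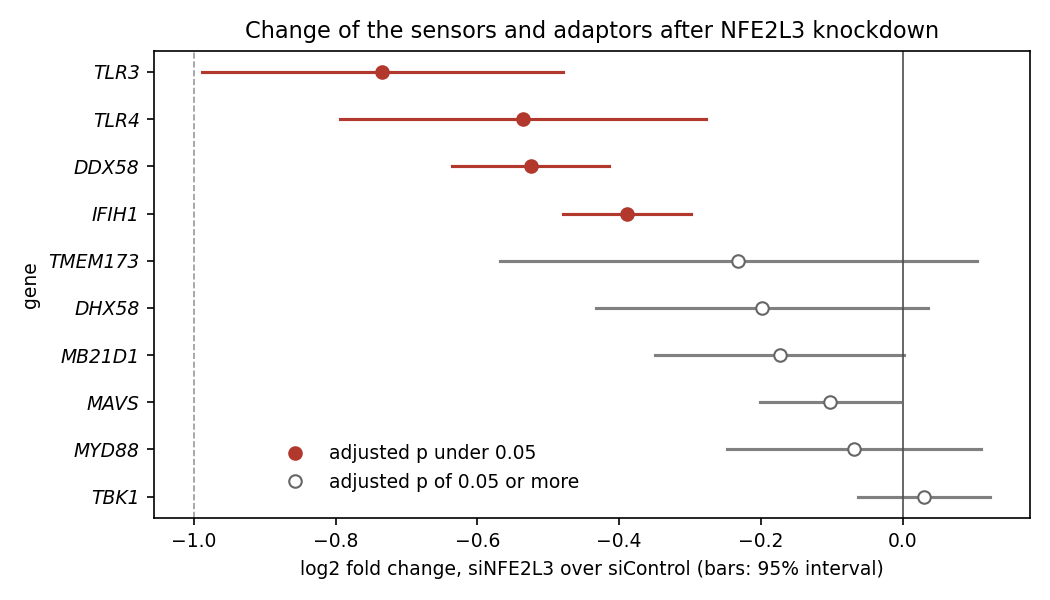
Log2 fold change of each of the 10 genes, siNFE2L3 over siControl, with its 95% interval from edgeR as a bar. Filled points are genes with an adjusted p under 0.05, and the dashed line marks a fall of 2-fold. The filled points are TLR3, TLR4, DDX58 and IFIH1, between -0.73 and -0.39, while the intervals of TMEM173, DHX58, MB21D1, MYD88 and TBK1 hold 0 and that of MAVS ends just short of it.

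For 7 of the 10 genes RefSeq gave a promoter window on GRCh38.p14, running over 250 bases before and 50 bases after the start site. DHX58, MB21D1 and TMEM173 were the genes left without one. The windows of the 4 genes that fell and of MYD88 are printed where each gene is described, since these 5 held every match to 3 motifs that were searched on both strands. The motifs were the core of the interferon-stimulated response element (GAAANNGAAA), the core of the antioxidant response element (TGACNNNGC), to which NFE2L3 and its relatives bind with small MAF proteins, and the NF-kB site. Capitals in the printed windows mark these matches, and positions count bases before the start site. Start sites are those of RefSeq and can lie inside the gene spans given here, which come from the deposited annotation. A match before the start site can thus lie inside the gene span, as for TLR3, TLR4, DDX58 and MYD88. The IFIH1 match at position -21 lies partly inside the IFIH1 span.

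TLR3, the endosomal receptor for double-stranded RNA, lies on chromosome 4 of GRCh38 from 186069152 to 186088069. It had 149, 140 and 118 reads in the siNFE2L3 libraries, against 215, 248 and 226 reads in the siControl libraries. Every siNFE2L3 library lay below every siControl library. The level was 0.370 ± 0.0275 RPKM in siNFE2L3 and 0.615 ± 0.0195 RPKM in siControl, or 60.1% of control with a 95% interval of 50.4% to 71.7% (log2 fold change -0.73, SE 0.123, adjusted p = 6.34e-05). This was the steepest fall among the 10 genes, at a read depth where counting error alone gives a coefficient of variation of 9.21% in the lowest library if every read is an independent count. The RefSeq window, chr4:186068906-186069205 on the plus strand, held 1 interferon response core, on the minus strand at position -4.
TLR3: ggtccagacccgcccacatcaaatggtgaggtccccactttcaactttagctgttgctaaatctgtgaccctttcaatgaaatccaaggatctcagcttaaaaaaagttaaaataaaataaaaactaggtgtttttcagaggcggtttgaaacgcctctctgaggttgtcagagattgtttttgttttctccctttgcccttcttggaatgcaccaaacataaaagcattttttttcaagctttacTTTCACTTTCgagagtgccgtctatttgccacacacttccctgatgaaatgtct

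TLR4, the lipopolysaccharide receptor, lies on chromosome 9 from 117704332 to 117716871. Its reads numbered 167, 163 and 130 in the siNFE2L3 libraries, against 224, 212 and 241 in the siControl libraries. The groups did not overlap, and siNFE2L3 library 3 was the lowest of all. TLR4 averaged 0.534 ± 0.0462 RPKM in siNFE2L3 and 0.776 ± 0.0685 RPKM in siControl, or 69.0% of control with an interval of 57.7% to 82.5% (log2 fold change -0.54, SE 0.125, adjusted p = 0.00211). Counting error gave a coefficient of variation of 8.77% in its lowest library. The window, chr9:117704153-117704452 on the plus strand, held the only antioxidant response core among the 7 windows, on the minus strand at position -8.
TLR4: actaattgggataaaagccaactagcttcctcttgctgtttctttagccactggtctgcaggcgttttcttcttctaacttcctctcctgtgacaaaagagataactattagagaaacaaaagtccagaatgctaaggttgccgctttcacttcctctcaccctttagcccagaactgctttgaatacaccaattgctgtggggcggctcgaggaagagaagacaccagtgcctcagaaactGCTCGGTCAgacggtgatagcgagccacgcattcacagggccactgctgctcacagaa

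Both Toll-like receptors stood low on the scale of the whole transcriptome, TLR3 at percentile 20.35 and TLR4 at percentile 24.43 of tested genes by mean RPKM. TLR4 exceeded TLR3 in RPKM in all 6 libraries, with a TLR4 to TLR3 ratio of 1.44 ± 0.0410 in siNFE2L3 and 1.26 ± 0.148 in siControl. The ratio was higher in each siNFE2L3 library than in each siControl library, by 0.20 on the log2 scale. The exact two-sided permutation test gave p = 0.1, the smallest that 3 against 3 libraries allow, and 0.125 after adjustment over the 5 ratios compared.

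DDX58, which encodes RIG-I, the sensor of short and 5′-triphosphate RNA, lies on the minus strand of chromosome 9 from 32455705 to 32526324. Its counts were 3399, 3183 and 3113 reads in the siNFE2L3 libraries, against 4153, 4857 and 5212 reads in the siControl libraries. All siNFE2L3 values were below all siControl values, and siControl library 1 was the nearest to them. DDX58 averaged 13.6 ± 0.541 RPKM in siNFE2L3 and 19.6 ± 1.81 RPKM in siControl, or 69.5% of control with an interval of 64.3% to 75.1% (log2 fold change -0.53, SE 0.0539, adjusted p = 5.66e-08). RefSeq lists the gene as RIGI, and its window, chr9:32526147-32526446 on the minus strand, held 1 NF-kB site, on the strand opposite to the gene at position -76.
DDX58: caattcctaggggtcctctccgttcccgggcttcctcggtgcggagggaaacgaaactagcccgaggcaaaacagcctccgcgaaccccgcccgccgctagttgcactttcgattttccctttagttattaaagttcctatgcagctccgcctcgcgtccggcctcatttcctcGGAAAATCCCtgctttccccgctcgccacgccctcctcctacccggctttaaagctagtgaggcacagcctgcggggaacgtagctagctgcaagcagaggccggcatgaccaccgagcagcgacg

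IFIH1, which encodes MDA5, the sensor of long double-stranded RNA, lies on the minus strand of chromosome 2 from 162267079 to 162318703. Reads were 3724, 3742 and 3582 in the siNFE2L3 libraries, against 4523, 5137 and 5081 in the siControl libraries. The groups were separate, with little spread inside either. The level was 14.9 ± 0.397 RPKM in siNFE2L3 and 19.6 ± 0.693 RPKM in siControl, or 76.4% of control with an interval of 71.8% to 81.3% (log2 fold change -0.39, SE 0.0438, adjusted p = 2.44e-07). The window, chr2:162318635-162318934 on the minus strand, held the most matches of the 7, with 3 interferon response cores at positions -159, -153 and -21 and an NF-kB site at position -76. The cores at -159 and -153 overlap each other and, like the NF-kB site, read on the strand opposite to the gene.
IFIH1: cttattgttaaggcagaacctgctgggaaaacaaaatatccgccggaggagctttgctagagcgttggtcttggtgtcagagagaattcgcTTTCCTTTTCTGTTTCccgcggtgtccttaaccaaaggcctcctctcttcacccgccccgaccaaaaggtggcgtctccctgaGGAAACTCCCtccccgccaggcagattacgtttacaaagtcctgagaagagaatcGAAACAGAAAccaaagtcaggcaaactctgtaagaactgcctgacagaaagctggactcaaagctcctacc

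DHX58 encodes LGP2, which lacks the signalling domains of RIG-I and MDA5 and modulates both, and it lies on chromosome 17 from 42101404 to 42112733. It had 207, 204 and 194 reads in the siNFE2L3 libraries, against 240, 254 and 213 in the siControl libraries. On the RPKM scale the values were 0.964, 0.944 and 0.983 in siNFE2L3 and 1.18, 1.14 and 0.998 in siControl. The groups did not overlap, but siControl library 3 was 0.998 RPKM against a highest siNFE2L3 value of 0.983 RPKM. The log2 fold change was -0.20 with a 95% interval of -0.43 to 0.04 (adjusted p = 0.212), so a fall of the size of IFIH1 lies within that interval.

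RIG-I and MDA5 transcripts were present at like levels per length, and DDX58 was the higher of the pair only in siControl library 3. The DDX58 to IFIH1 ratio of RPKM was 0.949, 0.885 and 0.904 in the siNFE2L3 libraries, against 0.955, 0.984 and 1.07 in the siControl libraries. Each siNFE2L3 library had a lower ratio than each siControl library, a log2 difference of -0.13 (exact permutation p = 0.1, adjusted p = 0.125 over the 5 ratios). DDX58 exceeded DHX58 14.1 ± 0.361 times in siNFE2L3 and 17.9 ± 3.29 times in siControl on the RPKM scale, a log2 difference of -0.33 with the same exact p. That difference moved to -0.18 without siControl library 3, where the ratio was 21.6, and to -0.43 without siControl library 1.

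**Figure D2:**
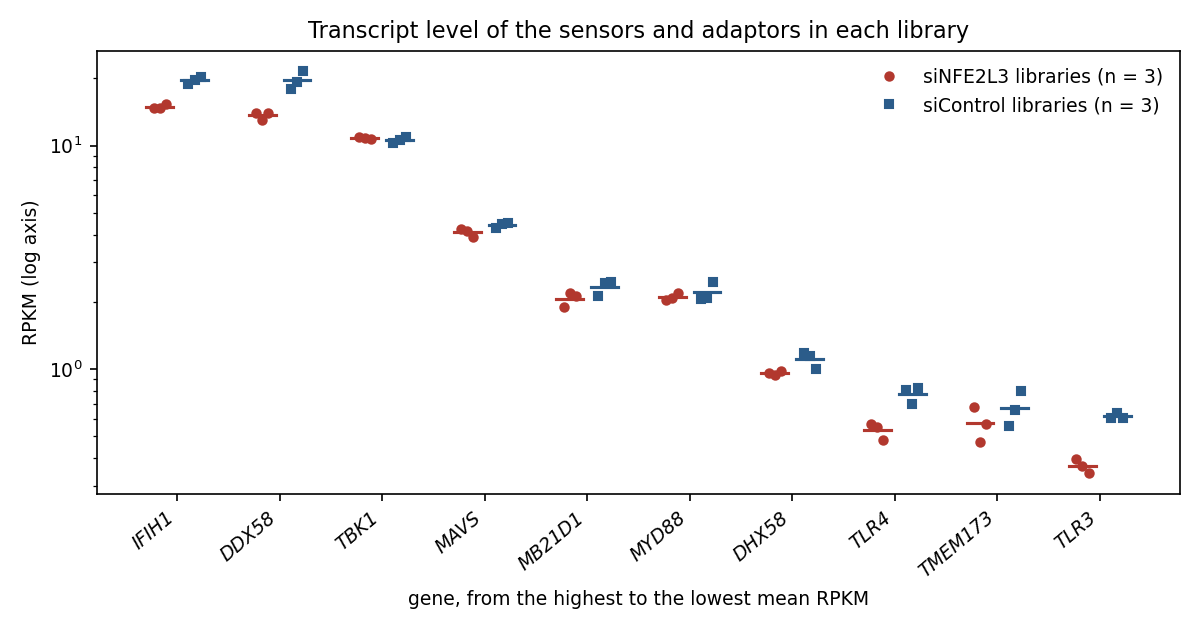
RPKM of the 10 genes in each library on a log axis, ordered by mean level, with siNFE2L3 libraries as circles, siControl libraries as squares and group means as bars. IFIH1, DDX58, TLR4 and TLR3 have circles clearly below their squares, MAVS and DHX58 by narrower gaps, TBK1 has circles and squares at the same height, and the gap between the highest and the lowest gene is wider than any difference between groups.

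MAVS, the mitochondrial adaptor of RIG-I and MDA5, lies on chromosome 20 from 3846799 to 3876123. Its level was 4.23, 4.16 and 3.91 RPKM in the siNFE2L3 libraries, against 4.26, 4.45 and 4.52 RPKM in the siControl libraries. The groups did not overlap, although siNFE2L3 library 1 and siControl library 1 were close. The level was 93.1% of control, and the log2 fold change of -0.10 had a 95% interval of -0.20 to -0.0044. It was past the threshold in the edgeR test before adjustment only (adjusted p = 0.118). MAVS had no motif match in its window.

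MYD88, the adaptor of most Toll-like receptors, lies on chromosome 3 from 38138478 to 38143022. Its RPKM was 2.03, 2.09 and 2.20 in the siNFE2L3 libraries, against 2.06, 2.09 and 2.47 in the siControl libraries. The groups overlapped, and only siControl library 3 stood higher. MYD88 had a log2 fold change of -0.07 with an interval of -0.25 to 0.11 (adjusted p = 0.619), and without siControl library 3 it was 0.02. The window of MYD88, chr3:38138411-38138710 on the plus strand, is shown because it too held an interferon response core, at position -61 on the gene's own strand, in a gene that did not pass the test.
MYD88: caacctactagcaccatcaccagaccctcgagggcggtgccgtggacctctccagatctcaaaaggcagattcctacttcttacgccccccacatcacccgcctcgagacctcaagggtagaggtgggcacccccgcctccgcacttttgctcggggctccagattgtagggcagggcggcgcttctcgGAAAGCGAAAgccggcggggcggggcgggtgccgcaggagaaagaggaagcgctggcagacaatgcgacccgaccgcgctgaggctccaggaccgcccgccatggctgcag

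Interferon response cores were thus found in 3 of the 7 windows (TLR3, IFIH1 and MYD88) and in 3.57% of 35116 RefSeq windows of the same length. NF-kB sites were found in 2 of the 7 (DDX58 and IFIH1) and in 11.3% of all windows. The antioxidant response core was found in 1 of the 7 (TLR4) and in 13.3% of all windows. A match of letters is a description and does not show that a factor binds there.

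MB21D1 encodes cGAS, the cytosolic DNA sensor, and lies on chromosome 6 from 73413515 to 73452276. It had 1.89, 2.18 and 2.12 RPKM in the siNFE2L3 libraries, against 2.12, 2.42 and 2.44 RPKM in the siControl libraries. The groups overlapped, with siControl library 1 at the level of the siNFE2L3 libraries. For MB21D1 the log2 fold change was -0.17 with an interval of -0.35 to 0.0021 (adjusted p = 0.141). Without siControl library 1 it was -0.23 and passed the test (adjusted p = 0.0482), the only call among the 10 genes that leaving out a library changed. MB21D1 shares 180 exon bases, 4.33% of its exons, with DDX43 on the opposite strand, which averaged 0.0515 CPM.

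TMEM173, the STING gene, lies on chromosome 5 from 139475534 to 139482935 and encodes the adaptor that cGAS activates. Reads were few, 146, 102 and 112 in the siNFE2L3 libraries, against 114, 146 and 171 in the siControl libraries. The ranges overlapped widely, with siNFE2L3 library 1 level with siControl library 2 in reads. The RPKM was 0.572 ± 0.104 in siNFE2L3 and 0.671 ± 0.122 in siControl, and the log2 fold change of -0.23 had the broadest interval of the 10, from -0.57 to 0.10 (adjusted p = 0.326). The size of the fall of TLR4 lies within that interval. The ratio of MB21D1 to TMEM173 in RPKM was 3.72 ± 0.920 in siNFE2L3 and 3.51 ± 0.405 in siControl (log2 difference 0.06, exact permutation p = 0.9), and it changed sign without siNFE2L3 library 2 or siControl library 3.

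TBK1, the kinase on which the MAVS, STING and TRIF routes meet, lies on chromosome 12 from 64451880 to 64502108. It had 52.2, 51.3 and 51.1 CPM in the siNFE2L3 libraries, against 49.1, 50.6 and 51.8 CPM in the siControl libraries. The groups overlapped, and this was the only gene of the 10 with a higher mean in siNFE2L3. The level was 10.8 ± 0.114 RPKM in siNFE2L3 and 10.6 ± 0.282 RPKM in siControl, and the log2 fold change was 0.03 with an interval of -0.06 to 0.12, or 95.7% to 109% of control (adjusted p = 0.68). TBK1 shares 702 exon bases, 14.7% of its exons, with RP11-114F3.4 on the opposite strand, at 2.85 CPM. The ratio of MAVS to TBK1 in RPKM was 0.379 ± 0.0129 in siNFE2L3 and 0.416 ± 0.00287 in siControl, lower in each siNFE2L3 library than in each siControl library (log2 difference -0.13, exact permutation p = 0.1, adjusted p = 0.125 over the 5 ratios).

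Ordered by RPKM, the sensors and their adaptors kept nearly the same sequence in every library. IFIH1 and DDX58 took the first places, TBK1 was always the third and MAVS always the fourth. MB21D1 and MYD88 shared the next places and did not differ beyond their spread. DHX58 was always the seventh, and TLR4, TMEM173 and TLR3 filled the last places, where TMEM173 overlapped TLR4 in both groups and TLR3 in siControl.

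The fold changes of the 4 genes that fell stayed past the threshold in all 16 other fits, among them other scalings, other tests, halved counts and each library left out in turn. TLR3 ranged between -0.79 and -0.68, TLR4 between -0.61 and -0.47, DDX58 between -0.58 and -0.45 and IFIH1 between -0.41 and -0.37 on the log2 scale. TMEM173 moved the most when a library was left out, between -0.37 and -0.09.

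**Figure D3:**
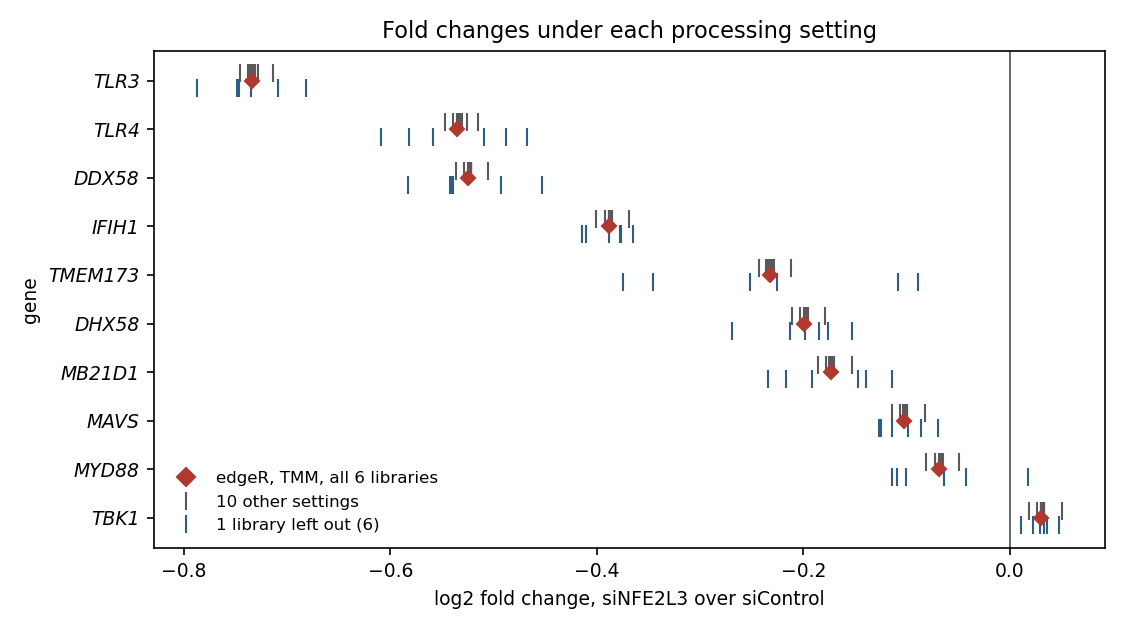
Log2 fold change, siNFE2L3 over siControl, of the 10 genes under each processing setting, with the value of edgeR on all 6 libraries as a diamond, 10 other settings as grey ticks and the 6 fits without 1 library as blue ticks. Grey ticks stay close to their diamond, and blue ticks spread most for TMEM173 and cross 0 only for MYD88.

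Around the 10 genes, 9 lists of other genes of these pathways were counted. They held 131 genes, of which 130 were in the table and 102 were tested. Of these, 31 fell, 8 rose and 63 did not pass the test, or 30.4% and 7.84% against 14% and 12.7% of all tested genes, and the median log2 fold change was -0.07. Without each siNFE2L3 library in turn the number that rose was 5. Of the 31 that fell, 20 kept their call without any 1 of the 6 libraries, and of the 8 that rose, 3 did. By the rule of a 2-fold change and an unadjusted p under 0.05, 1 gene (IRF8) was lower and 0 were higher, and edgeR at an unadjusted p under 0.05 alone gave 35 lower and 12 higher.

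Among the 8 other Toll-like receptors, 4 were tested, and the other 4 had at most 6 reads in any library. Of the 4 tested, 1 fell and 0 rose (25% and 0%, against 14% and 12.7% of all tested genes). At an unadjusted p under 0.05, 2 were lower and 0 higher. TLR1, which pairs with TLR2 to bind bacterial lipopeptides, averaged 0.163 ± 0.0187 RPKM in siNFE2L3 and 0.251 ± 0.0170 RPKM in siControl (log2 fold change -0.62, SE 0.225, adjusted p = 0.0416). This call rested on 36 to 67 reads per library and was lost, with an adjusted p of up to 0.126, in 5 of the 6 fits without 1 library, all but that without siControl library 1. TLR2 had a log2 fold change of -0.23 (adjusted p = 0.0762), TLR6 of -0.08 (adjusted p = 0.615) and TLR5, with 5 to 14 reads, of -0.19 (adjusted p = 0.842). TLR1 and TLR6 share 57 exon bases.

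Of the co-receptors and chaperones, 5 of 9 were tested, with 1 lower and 1 higher at an unadjusted p under 0.05. By adjusted p, 1 fell and 0 rose (20% and 0%, against 14% and 12.7% of all tested genes). The one that fell was LY96, the gene of MD-2, which binds lipopolysaccharide together with TLR4. LY96 had 2.89, 2.81 and 1.96 RPKM in the siNFE2L3 libraries, against 4.04, 3.87 and 3.50 RPKM in the siControl libraries. The groups did not overlap, and siNFE2L3 library 3 was the lowest by far. The log2 fold change was -0.57 with a 95% interval of -0.92 to -0.22 (adjusted p = 0.0136), and without siNFE2L3 library 3 it was -0.42 with an adjusted p of 0.0975. CD14, which hands lipopolysaccharide to TLR4 and MD-2, had at most 12 reads in any library and was not tested. UNC93B1, which carries TLR3 to endosomes, had a log2 fold change of -0.10 (adjusted p = 0.237), the endoplasmic reticulum chaperone gene CNPY3 of -0.03 (adjusted p = 0.687) and the endosomal GTPase gene RAB7A of 0.09 (adjusted p = 0.0894). Without siControl library 1 the change of UNC93B1 was -0.16 and passed the test (adjusted p = 0.0348).

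In the list of TLR adaptors and proximal signalling, 16 of 18 were tested. Of the 16, 3 fell and 2 rose (18.8% and 12.5%, against 14% and 12.7% of all tested genes). IRAK2, a kinase of the MYD88 complex, averaged 8.73 ± 0.706 RPKM in siNFE2L3 and 11.1 ± 0.496 RPKM in siControl (log2 fold change -0.34, SE 0.0578, adjusted p = 6.32e-05). TAB2 and MAP3K7, which encode an adaptor and the kinase of the TAK1 complex, had log2 fold changes of -0.16 (adjusted p = 0.0041) and -0.18 (adjusted p = 0.00871), the call of MAP3K7 being lost without siNFE2L3 library 2 (adjusted p = 0.0759). TRAF3, a ubiquitin ligase of the TRIF and MAVS routes, rose by 0.13 on the log2 scale (adjusted p = 0.0254) and lost its call in 3 of the fits without 1 library, those without siNFE2L3 library 1, siNFE2L3 library 3 or siControl library 2 (adjusted p up to 0.114). SARM1, an NAD-cleaving adaptor that shares 39.7% of its exons with SLC46A1 on the opposite strand, rose by 0.22 (adjusted p = 0.0368) and lost its call in 5 of these fits, all but that without siControl library 2 (adjusted p up to 0.134). The TRIF gene TICAM1 had a log2 fold change of -0.20 (adjusted p = 0.097), which without siControl library 1 was -0.27 and passed the test (adjusted p = 0.02). TIRAP, which links MYD88 to TLR4, had a change of -0.37 (adjusted p = 0.126). On the opposite strand it shares 12.5% of its exons with RP11-712L6.7 and 10% with RP11-712L6.5. RP11-712L6.5 averaged 1.88 CPM and TIRAP 1.57 CPM.

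In the list of RIG-I-like receptor partners, 17 of 19 were tested, with a median log2 fold change of 0.03. Of the 17, 5 fell and 2 rose (29.4% and 11.8%, against 14% and 12.7% of all tested genes). The largest change was a rise. ZCCHC3, an RNA-binding co-factor of RIG-I and MDA5, averaged 4.61 ± 0.0911 RPKM in siNFE2L3 and 3.30 ± 0.279 RPKM in siControl (log2 fold change 0.48, SE 0.0725, adjusted p = 1.62e-05). ZC3HAV1, the zinc-finger antiviral protein gene, fell by 0.21 (adjusted p = 7.82e-04), TRIM25, the gene of a ubiquitin ligase for RIG-I, fell by 0.18 (adjusted p = 0.00216) and PPP1CA, a phosphatase gene whose product activates RIG-I and MDA5, fell by 0.21 on the log2 scale (adjusted p = 0.00841). TRIM25 and PPP1CA share some exon bases with genes on the opposite strand, and PPP1CA lost its call without siNFE2L3 library 3 or siControl library 2 (adjusted p up to 0.0651). The remaining calls were falls of 0.16 for PCBP1 and 0.15 for PCBP2, genes of poly(C)-binding proteins, PCBP2 being known to promote the breakdown of MAVS, and a rise of 0.15 for FADD, each lost in some fits without 1 library. For PCBP1 these were the fits without siNFE2L3 library 1, siNFE2L3 library 2 or siControl library 3 (adjusted p up to 0.0959), and for PCBP2 those without siNFE2L3 library 3 or siControl library 3 (adjusted p up to 0.0958). FADD, which shares 54.9% of its exons with RP11-805J14.5 on the opposite strand, lost its call without siNFE2L3 library 2, siNFE2L3 library 3 or siControl library 1 (adjusted p up to 0.178).

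Of the cGAS and STING partners and the enzymes that clear DNA, 18 of 19 were tested, with a median log2 fold change of -0.10. Of the 18, 5 fell and 1 rose (27.8% and 5.56%, against 14% and 12.7% of all tested genes). TRIM56, the gene of a ubiquitin ligase that acts on cGAS and STING, rose, with 20.1 ± 0.425 RPKM in siNFE2L3 and 16.5 ± 0.762 RPKM in siControl (log2 fold change 0.29, SE 0.0413, adjusted p = 8.92e-06). PQBP1, which helps cGAS to recognise retroviral DNA, fell by 0.21 (adjusted p = 7.34e-04), G3BP1, which binds cGAS, by 0.16 (adjusted p = 0.00307) and BANF1, which coats DNA at the nuclear envelope, by 0.15 on the log2 scale (adjusted p = 0.0155). BANF1 lost its call without siNFE2L3 library 1 or siControl library 3 (adjusted p up to 0.109). TMED2, of vesicle transport, fell by 0.13 on the log2 scale (adjusted p = 0.018). TMED2 lost its call without siNFE2L3 library 1, siNFE2L3 library 3 or siControl library 1 (adjusted p up to 0.076).

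Of 18 other nucleic acid sensors and double-stranded RNA proteins, 15 were tested, with a median log2 fold change of -0.01. Of the 15, 4 fell and 1 rose (26.7% and 6.67%, against 14% and 12.7% of all tested genes). DDX21, a nucleolar RNA helicase gene, had 85.2, 88.3 and 87.5 RPKM in the siNFE2L3 libraries, against 107, 102 and 107 RPKM in the siControl libraries (log2 fold change -0.27, adjusted p = 6.00e-06). DDX41, a helicase gene linked to DNA sensing, fell by 0.22 (adjusted p = 1.44e-04), and the inflammasome sensor gene NLRP1 by 0.27 (adjusted p = 2.21e-04). EIF2AK2, which encodes the double-stranded RNA-activated kinase PKR, fell by 0.13 (adjusted p = 0.0148; 0.067 without siNFE2L3 library 3). The helicase gene DHX33 rose by 0.22 on the log2 scale (adjusted p = 0.00637; 0.053 without siNFE2L3 library 2).

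The list around TBK1 held the largest fall of the 102 tested pathway genes. All 13 of its genes, which encode TBK1 partners, IKK kinases and interferon regulatory factors, were tested. Of the 13, 6 fell and 1 rose (46.2% and 7.69%, against 14% and 12.7% of all tested genes). IKBKE, the gene of the TBK1-related kinase IKK-epsilon, had 1491, 1339 and 1320 reads in the siNFE2L3 libraries, against 1832, 2203 and 2111 reads in the siControl libraries. Its groups were wide apart, while those of TBK1 overlapped. IKBKE averaged 6.70 ± 0.383 RPKM in siNFE2L3 and 9.73 ± 0.537 RPKM in siControl, and its log2 fold change was -0.54 (SE 0.0570, adjusted p = 9.03e-08), like that of DDX58 in size. IRF8, a transcription factor known mainly from myeloid and B cells, fell the furthest, with 0.163 ± 0.0208 RPKM in siNFE2L3 and 0.372 ± 0.0318 RPKM in siControl (log2 fold change -1.19, SE 0.195, adjusted p = 4.72e-05). IRF8 reads were few, 54, 44 and 40 in the siNFE2L3 libraries, against 101, 121 and 98 in the siControl libraries. IKBKB, the IKK-beta gene, fell by 0.37 (adjusted p = 4.91e-06), AZI2, the gene of a TBK1-binding protein, by 0.26 (adjusted p = 2.21e-04) and OPTN, the optineurin gene, by 0.15 on the log2 scale (adjusted p = 0.00501). IRF1 averaged 16.6 ± 0.542 RPKM in siNFE2L3 and 20.8 ± 1.63 RPKM in siControl (log2 fold change -0.32, adjusted p = 1.48e-05). IRF3, the transcription factor that TBK1 phosphorylates, rose by 0.18 (17.3 ± 0.366 RPKM in siNFE2L3 and 15.3 ± 1.16 RPKM in siControl, adjusted p = 0.0103). It shares 19.3% of its exons with BCL2L12 on the opposite strand, and its call was lost without siNFE2L3 library 1 or siControl library 3 (adjusted p up to 0.0968).

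The last of the signalling lists held genes that restrain these pathways. Of 14 inhibitors, 13 were tested, 6 fell and 1 rose (46.2% and 7.69%, against 14% and 12.7% of all tested genes), with a median log2 fold change of -0.12. TNFAIP3, which encodes the ubiquitin-editing enzyme A20, averaged 34.8 ± 2.02 RPKM in siNFE2L3 and 46.6 ± 3.74 RPKM in siControl (log2 fold change -0.42, SE 0.0508, adjusted p = 6.82e-07). USP18, an interferon-induced protease that blocks interferon receptor signalling, averaged 4.85 ± 0.368 RPKM in siNFE2L3 and 6.43 ± 0.193 RPKM in siControl (log2 fold change -0.41, SE 0.0742, adjusted p = 1.66e-04). TRIM38, the gene of a ubiquitin ligase that limits TLR3 and TLR4 signalling, fell by 0.23 (adjusted p = 4.71e-04), and ITCH, the gene of a ligase acting on MAVS, by 0.17 on the log2 scale (adjusted p = 0.00232), though ITCH shares 33.9% of its exons with AL109923.1 on the same strand. OTUB1 and CYLD, which encode deubiquitinating enzymes, fell by 0.18 (adjusted p = 0.00495) and 0.12 (adjusted p = 0.0353). CYLD lost its call without siNFE2L3 library 1, siNFE2L3 library 3, siControl library 2 or siControl library 3 (adjusted p up to 0.169). The gene that rose was TAX1BP1, an adaptor gene of A20, by 0.16 (adjusted p = 0.00317).

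The interferons at the end of the pathway were hardly present in either group. Of 13 interferon genes only IFNE was tested, with 20, 32 and 26 reads in the siNFE2L3 libraries, against 18, 17 and 24 reads in the siControl libraries. The groups overlapped (log2 fold change 0.43, adjusted p = 0.401). The other 12 had at most 2 reads in any library, and IFNB1, the interferon-beta gene, had 0, 0 and 0 reads in the siNFE2L3 libraries, against 2, 2 and 0 reads in the siControl libraries. A change in their transcripts was not detectable at this depth.

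**Figure D4:**
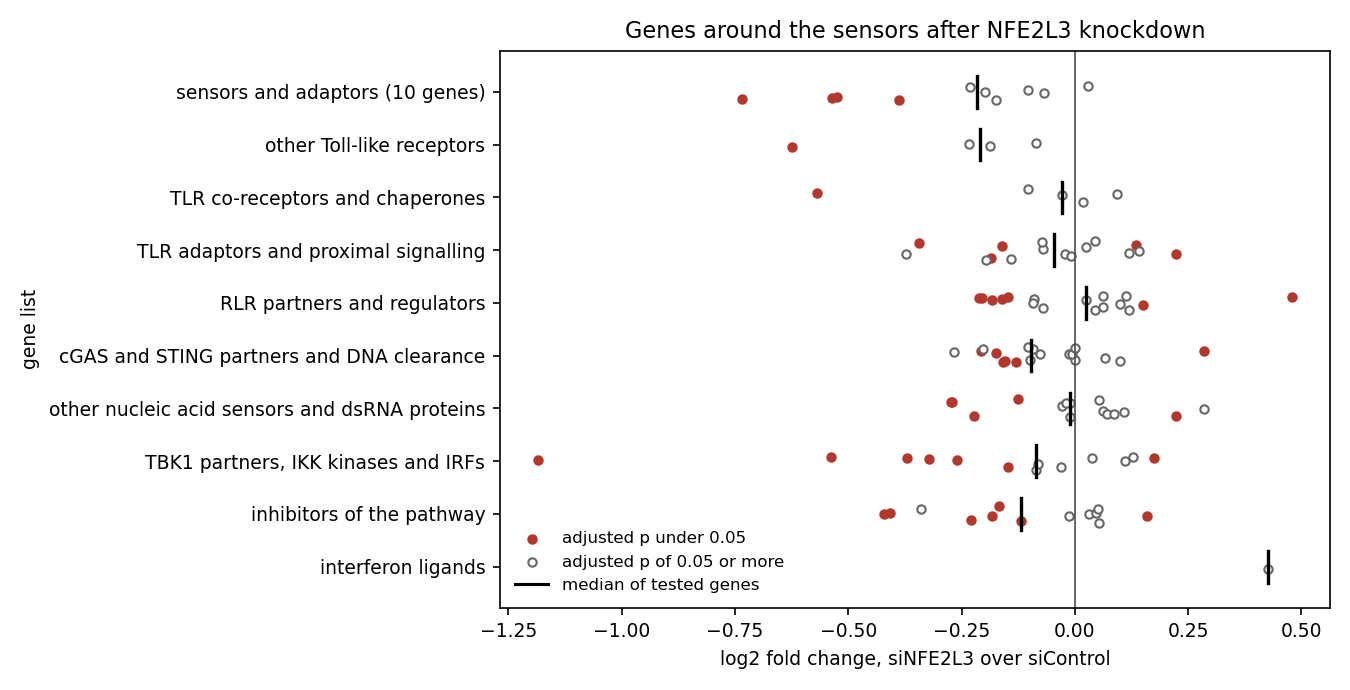
Log2 fold change, siNFE2L3 over siControl, of each tested gene in the 10 sensors and adaptors and in the 9 lists around them, with filled points for an adjusted p under 0.05 and a vertical bar at the median of each list. The 10 genes have a median of -0.22, IRF8 is the point furthest to the left at -1.19, ZCCHC3 is the highest filled point at 0.48, and each of the 9 lists with more than 5 tested genes has filled points on both sides of 0.

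By pattern over the 6 libraries, the nearest genes to TLR3, TLR4 and DDX58 were taken from 13246 candidates, as those with the smallest root mean square difference in log2 CPM after each gene's siControl mean was taken away. For TLR3 they were TNIP3, which encodes a partner of A20, SLC22A23 and EFHD1, with differences of 0.0482, 0.0555 and 0.0590 and fold changes of -0.72, -0.72 and -0.71 on the log2 scale. For TLR4 they were MB21D2, SELPLG and BNC1, with differences of 0.0536, 0.0653 and 0.0680 and fold changes of -0.47, -0.56 and -0.52. For DDX58 they were GSTZ1, DCUN1D5 and PER2, with differences of 0.0413, 0.0482 and 0.0519 and fold changes of -0.54, -0.51 and -0.55. The difference between groups enters this measure, so the like fold changes follow from how the genes were picked. The points share their libraries and scaling, so likeness over 6 values is a description only.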

How the data were processed

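RNA-seq of 786-O cells was analysed from 3 siNFE2L3 and 3 siControl libraries, grouped by the sample titles. The authors made the deposited counts by trimming with Trimmomatic 0.36, collapsing reads by molecular identifier, mapping with STAR 2.5.3a to the Ensembl release of GRCh38 and counting exon reads per gene with featureCounts of Subread 1.5.1, as given by the study's supplement and the submitters' processing notes. The exon length column deposited with the counts was used for RPKM. The sources used here do not state whether the counting used strand, so genes with exons on opposite strands may share reads. Between 67.6% and 69.9% of counts above 0 and under 30 were even, against 52.2% to 53.5% of larger counts, so halved counts were tried.

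Counts were filtered by filterByExpr (minimum count 10), TMM-scaled and then compared by edgeR 4.0.16 (quasi-likelihood) in R 4.3.3, with group as the only term. Standard errors were the fold change over the root of its F statistic, and intervals are 95% intervals. The biological coefficient of variation was 4.76%. Chi-square tests found no pair of libraries within sampling noise. The alternatives were RLE, upper quartile and no scaling, no filter and 10 counts in every library, DESeq2 1.42.0, limma-voom (limma 3.58.1), the edgeR exact test, a replicate block, halved counts, a fold cutoff of 2 and each library left out. The procedure was also tested on simulated data.

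The 10 genes and the lists were chosen with earlier results of these data known. Genes named are NFE2L3, the 10 genes, in each list up to 4 with the smallest adjusted p, and 3 genes nearest in pattern to TLR3, TLR4 and DDX58 among those with at least 1 CPM. The cell type markers are 2 further lists, and those named of them (PAX8, VIM, PTPRC, CSF1R and CD68) were picked after their values were seen. Named outside this rule, after their values were seen, are IRF3, AZI2, OPTN, TAX1BP1, OTUB1, CYLD, SARM1, TICAM1, TIRAP, PCBP1, PCBP2, FADD, TMED2, EIF2AK2, CD14, IFNB1 and the genes sharing exons. Of the pathway genes counted, 1 is not reported here by name.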

Additional observations from a re-analysis of the deposited data

How the results depend on the processing

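The number of genes among the 10 that fell was 4 in every setting tried except 2, and the number that rose was 0 in all. It was 5 without siControl replicate 1 (range without 1 library 4 to 5), through MB21D1 (-0.23, adjusted p = 0.0482), and 0 by the rule of a 2-fold change and an unadjusted p under 0.05. By that rule 1 pathway gene was lower and 0 were higher, against 31 and 8. Without 1 library, 24 to 33 pathway genes fell and 5 to 8 rose, with 5 rises without each siNFE2L3 replicate. Signs turned for MYD88 (0.018 without siControl replicate 3), TLR5 (-0.69 to 0.16 without 1 library, with 0.03 without siNFE2L3 replicate 2 and 0.16 without siControl replicate 1) and the ratio of MB21D1 to TMEM173, whose log2 difference ranged between -0.11 (without siNFE2L3 replicate 2) and 0.25 and was -0.04 without siControl replicate 3. The causes were not tested. With all libraries in, TLR1 lost its call with upper quartile scaling, DESeq2 and the block (adjusted p up to 0.0709), SARM1 without scaling, without a filter and with the block (up to 0.0656), CYLD with upper quartile scaling and the block (up to 0.0868), TMED2 with upper quartile scaling (0.0572), TRAF3 without a filter (0.0615) and FADD without scaling (0.0521). Upper quartile scaling gave 28 pathway genes lower and 11 higher, RAB7A among the rises gained (0.0388). Other scalings moved the median of all genes by at most 0.02.

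Same-numbered libraries had correlations of -0.0814, -0.179 and -0.0774 in their deviations from the group means over 9520 genes. Libraries of different numbers had correlations between -0.0201 and 0.112. Deviations within a group of 3 libraries sum to 0, so these values constrain each other. They do not settle whether libraries were paired. With the replicate block, 4 of the 10 genes fell and 0 rose, 29 pathway genes fell and 7 rose, and 2504 of all genes fell and 2278 rose, against 2783 and 2537. Low read numbers limited TLR3, TLR4, TMEM173, TLR1, LY96, IRF8 and TIRAP. The exact tests of ratios could not go below p = 0.1.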
